A study of Homo sapiens with 12 samples.

Results

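The comparison described here sets mRNA sedimenting with 3 or more ribosomes (heavy polysomes) against mRNA sedimenting with 1 ribosome (monosomes) in HEK293T, a cell line derived from human embryonic kidney. It used 6 of the 12 libraries: 1 of each gradient position from cells given DMSO (the solvent control), from cells given a PRMT1 inhibitor and from cells given a PRMT4 inhibitor. PRMT1 and PRMT4 are protein arginine methyltransferases, enzymes that add methyl groups to arginine residues of proteins. The other 6 libraries were the total input and the fraction with 2 ribosomes of each treatment. Lysates were separated on 10 to 50% sucrose gradients, per the labels' protocols, and the compounds, doses, treatment times and whether cultures were separate are not given in the sources used here. Sample titles were used to read the deposited columns R1, R2 and R3 as carrying 1, 2 and 3 or more ribosomes, and every value below rests on that reading.

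The 3 treatments stood as 3 replicates of gradient position, so each heavy library was paired with the monosome library of its own treatment. The 3 pairs are not repeats of one condition, and a p-value here measures how alike the position difference was in 3 differently treated samples, which may include technical spread. Of 15534 gene IDs, 4057 had a mean of at least 10 FPKM (fragments relative to transcript length and sequencing depth) over the 12 libraries and were tested. For each gene and treatment the difference was the log2 ratio of (FPKM + 1) in heavy polysomes to that in monosomes, centred on its median over the tested genes. The medians removed were -0.19 for DMSO, -0.26 for the PRMT1 inhibitor and -0.15 for the PRMT4 inhibitor. A difference of 0 therefore marks the typical gene, and a rise or a fall is relative to it. At the edge of the abundance minimum, DNAH10 and QTRT1 lay just below at 9.993 and 9.996 FPKM, and ASPHD1 and CCNYL1 lay just above at 10.002 and 10.006 FPKM.

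Ribosomes load onto an mRNA one after another, so an mRNA that is initiated often, or has a long reading frame, can carry many ribosomes at once, and one that is initiated rarely or has a very short frame carries few. In a sucrose gradient the heavy fractions therefore hold mRNAs in active translation, while the monosome fraction holds mRNAs with a single ribosome and also any particle of the same density. Ribosomal protein mRNAs and related mRNAs of the translation machinery begin with a C followed by a tract of pyrimidines, the terminal oligopyrimidine or TOP motif, through which mTOR signalling and LARP1 move them between translated and stored pools. mRNAs of the mitochondrial genome are translated inside mitochondria by separate ribosomes.

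The 6 libraries had summed FPKM of 357350 to 425444, and 47 to 68 of the tested genes were listed at 0 in each. The table holds FPKM and no counts, but for low genes with a single annotated transcript the values came in steps worth 1 fragment. Those steps put each library at about 469000 to 547000 counted fragments, and 94.0 to 95.1% of the low values were whole multiples within a tolerance of 0.1. The median tested gene with 1 annotated transcript had 20.6 to 23.3 fragments per library. The cell line label was checked with 8 marker genes: VIM was listed at 197 to 386 FPKM in the 6 libraries and NEFM, NEFL, INA and IGF2BP1 were above 0 in all 6, whereas PAX2 was at 0 in all 6. SALL2 was low, at 0.63 to 8.69 FPKM, and LIN28B was at 0 to 5.99 FPKM. Of 15 genes marking blood, liver, skin, fibroblasts, muscle and neurons, 7 were in the table, and their summed level was 37.8 to 81.3 FPKM with 1 ribosome and 34.8 to 67.6 FPKM with 3 or more. Among them the neuron marker RBFOX3 was above 0 in all 6 libraries, at 13.4 to 40.1 FPKM, and the blood marker HBA1 ranged from 0 to 58.0 FPKM. The markers therefore do not settle the cell label by themselves. Fewer cells and less RNA per cell cannot be told apart in such bulk samples.

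The start sequences of 9 mRNAs from the lists of ribosomal protein and other TOP genes are shown first. Their differences passed the test, and they let the TOP motif be read beside the values that follow. They are RefSeq sequences on GRCh38.p14 that run from 10 bases before the annotated start through the first 20 bases of the transcript, printed 5′ to 3′. Capitals mark an unbroken run of C and T from the first transcribed base.
RPL41: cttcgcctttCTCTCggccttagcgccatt
RPS12: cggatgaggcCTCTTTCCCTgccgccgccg
RPS24: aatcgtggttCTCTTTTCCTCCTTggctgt
RPS18: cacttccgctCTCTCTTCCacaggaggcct
RACK1: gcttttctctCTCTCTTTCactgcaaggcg
EEF1A1: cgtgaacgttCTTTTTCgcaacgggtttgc
TPT1: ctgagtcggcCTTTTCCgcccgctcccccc
EEF1G: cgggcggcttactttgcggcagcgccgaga
FAU: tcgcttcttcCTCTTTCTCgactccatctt
On the plus strand lie RPL41 at chr12:56116623-56116652, RPS12 at chr6:132814559-132814588, RPS24 at chr10:78033853-78033882 and RPS18 at chr6:33272065-33272094. On the minus strand lie RACK1 at chr5:181243887-181243916, EEF1A1 at chr6:73521013-73521042, TPT1 at chr13:45341164-45341193, EEF1G at chr11:62573872-62573901 and FAU at chr11:65122115-65122144. The first 8 fell in heavy polysomes, EEF1G among them without a run, and FAU, with a run of 9 bases, rose. RPS27, which also fell and passed the test, has a run of 7 bases and is not shown.

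Across the transcriptome the 3 treatments placed genes in a similar order. Differences had an SD over genes of 1.463 to 1.497 (log2) within a treatment, the median gene varied with an SD of 0.64 between treatments, and the Spearman correlation between treatments was 0.53 to 0.55 over 4057 genes, which are not independent replicates. By the rule of the comparison, 1151 genes (28.4%) were higher with 3 or more ribosomes in all 3 treatments and 1153 (28.4%) were lower in all 3. In limma's moderated test with Benjamini-Hochberg adjustment, 329 genes (8.11%) were called higher and 382 (9.42%) lower at an adjusted p under 0.05, and all 711 had the same direction in the 3 treatments. A stricter rule of size, at least 2-fold in each treatment, was met by 273 genes in the higher direction (6.73%) and 325 in the lower (8.01%), and 479 genes met both the test and the rule of size. Called genes had a median difference of 1.60 in the higher direction and -1.83 in the lower.

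**Figure D1:**
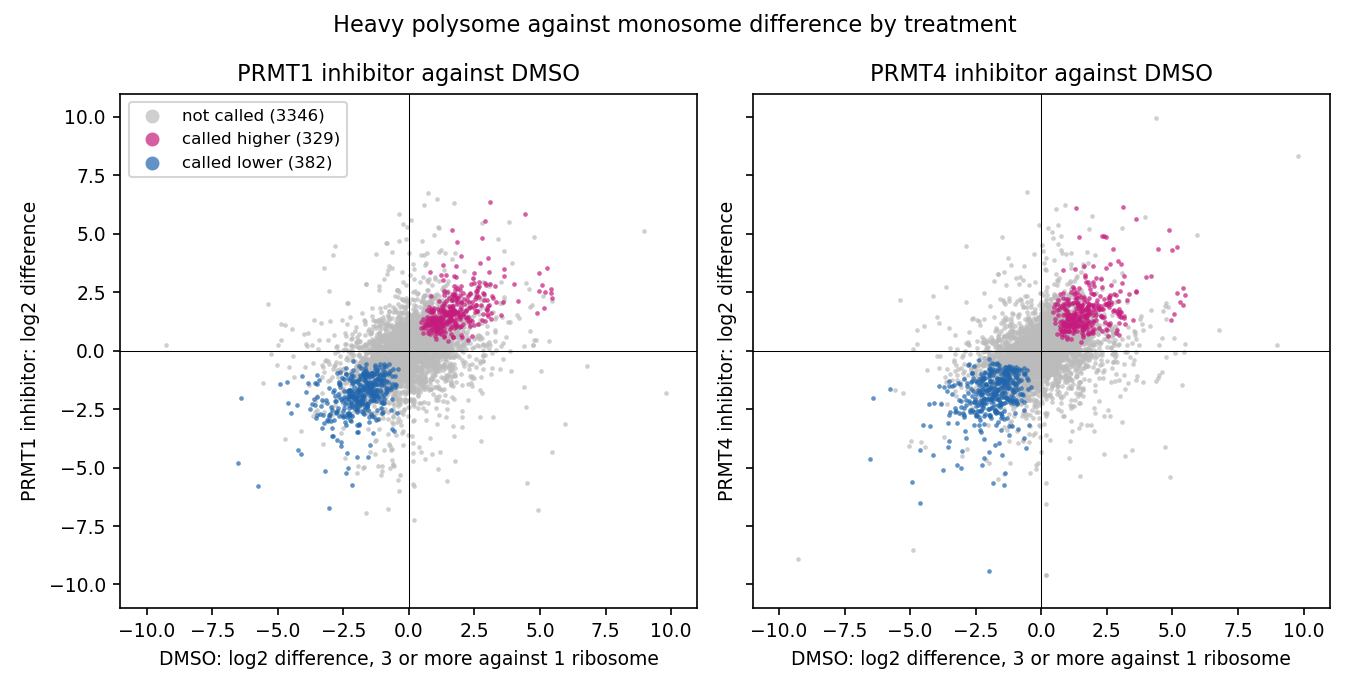
Each point is 1 of 4057 genes, with the centred log2 difference between 3 or more ribosomes and 1 ribosome in DMSO on the horizontal axis and in the PRMT1 inhibitor (left) or the PRMT4 inhibitor (right) on the vertical axis. Called genes, 329 higher and 382 lower, sit in the corners where both treatments have the same sign, and uncalled genes surround 0.

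These calls are limited by the 3 pairs: sign flips of 3 pairs cannot go below a two-sided p of 0.25, so the test borrows its spread from genes of like abundance, and without that trend limma called 0 genes, with a smallest adjusted p of 0.0507 and 1340 genes at an unadjusted p under 0.05. Without the PRMT1 inhibitor pair 22 genes were called (8 higher and 14 lower), without the PRMT4 inhibitor pair 309 (151 higher and 158 lower) and without the DMSO pair 594 (281 higher and 313 lower). Without centring the split moved from 46.3% to 33.7% of calls in the higher direction (253 higher and 497 lower), and with upper-quartile scaling to 54.2%.

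One feature of the table bears on the names of genes. Of the tested genes with an annotation, 61.6% had an exon that overlaps one of a different gene on the other strand (an opposite-strand exon), as did 73.6% of genes called higher and 53.7% of genes called lower. Abundance differed between these groups, with a median of 83.2 FPKM for genes called higher, 54.9 for genes called lower and 28.3 for all tested genes. The library kit keeps the strand of the RNA, but the counting's strand setting is not given in the sources used here, so a value listed under such a gene may hold fragments of its partner. The partner is named below for genes whose values are given by library. MFSD11, for example, had a mean of 8081 FPKM over the 12 libraries and its partner SRSF2 66.2 FPKM. Lacking a partner does not clear a gene, since whether the strand setting changed such values was not tested. Genes without an opposite-strand exon had a median difference of -0.16 and those with one of 0.07. Fitted on the 1527 genes without one, the test, recentred on those genes, called 97 higher and 119 lower. Of 6 tested genes opposite replication-dependent histone genes, 3 were called higher and 0 lower (median 1.03). These 6 include H2BC15, H3C14 and H3C15, which are histone genes themselves, so the group in part repeats the histone list given below. H3C14 and H3C15, which share the same values, were among the calls. Of 5 opposite snoRNA host and other named lncRNA genes, 0 were called higher and 3 lower (median -1.63). Both groups were singled out after their values were seen.

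PFN1, profilin, which binds actin monomers, was listed at 63.1, 72.0 and 96.6 FPKM with 1 ribosome and at 688, 678 and 512 FPKM with 3 or more, in DMSO, PRMT1 inhibitor and PRMT4 inhibitor in that order. No heavy library overlapped a monosome library, and the mean difference was 3.21 ± 0.27 (SE, n = 3 pairs; limma adjusted p = 0.00332). Its partner on the other strand is ENO3. IRF7, a transcription factor of the interferon response with no partner, was listed at 19.9, 7.67 and 8.03 FPKM with 1 ribosome and at 120, 98.1 and 164 FPKM with 3 or more, again without overlap. Its difference was 3.61 ± 0.39 (limma adjusted p = 0.00506), the highest among genes listed above 0 in all 6 libraries and named by the rule. RHOB, a small GTPase, rose by 3.11 ± 0.38 from 7.67, 10.8 and 7.80 FPKM to 92.5, 89.9 and 44.3 FPKM (limma adjusted p = 0.00642).

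The other 7 of the 10 highest named genes were RNF187, TBCB, VASN, ARF3, CDHR5, MAP7D1 and HMX1, with differences of 2.97 to 3.52. MAP7D1 lies opposite TRAPPC3 and RNF187 opposite a gene without a symbol. TBCB, a tubulin-folding cofactor opposite POLR2I, went from 14.4, 4.54 and 9.38 FPKM to 92.0, 130 and 49.3 FPKM. VASN, a membrane protein that binds TGF-beta, went from 3.56, 8.30 and 7.34 FPKM to 63.3, 54.4 and 65.8 FPKM. ARF3, a GTPase of Golgi traffic, was listed at 0.96 to 6.40 FPKM with 1 ribosome and 26.3 to 30.04 FPKM with 3 or more. In each of the 10 genes every heavy value lay above every monosome value. The genes were chosen by these same values, so the lack of overlap is a description and no separate support. That holds for every gene named by the size of its difference, in either direction.

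**Figure D2:**
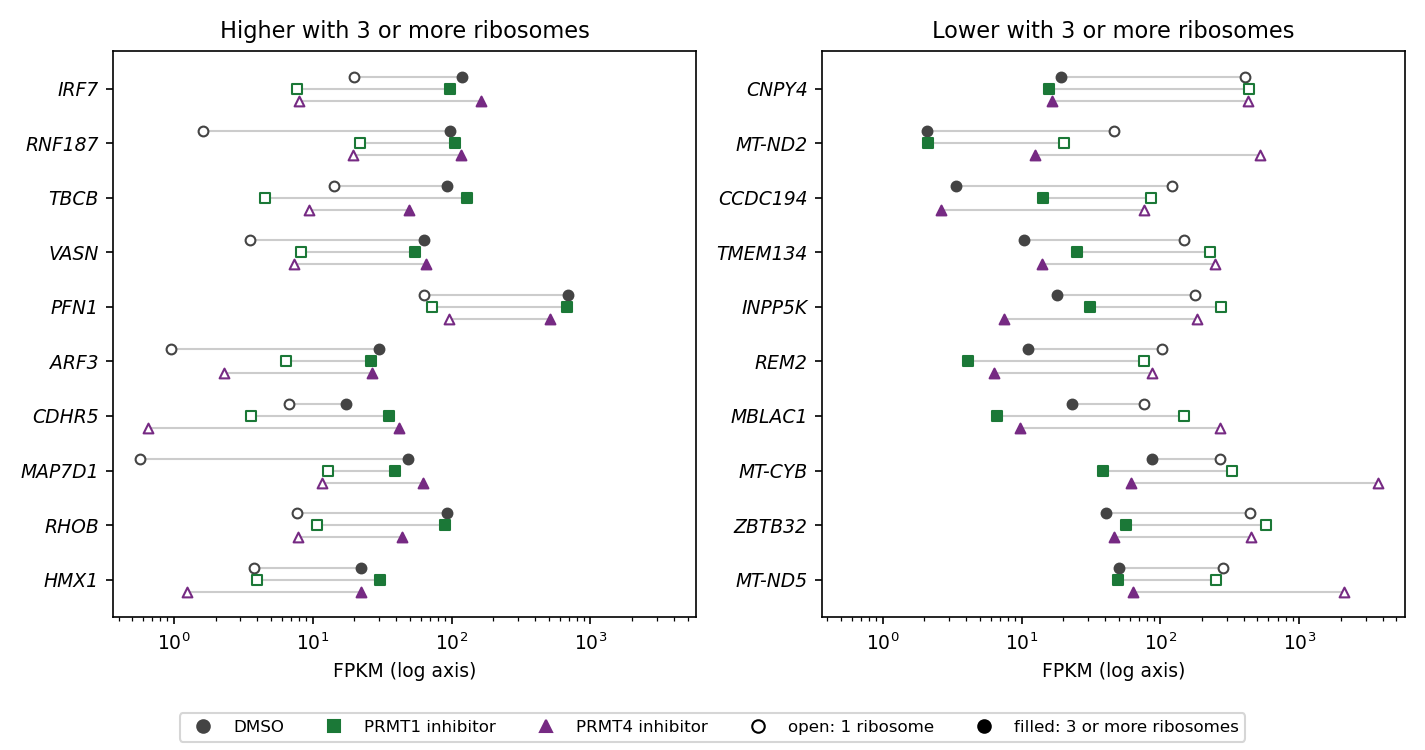
FPKM on a log axis with 1 ribosome (open symbols) and with 3 or more (filled symbols) for the 10 genes with the largest called difference in each direction, each symbol being 1 library and each line joining the pair of a treatment. The filled symbols of PFN1 lie at 512 to 688 FPKM against 63.1 to 96.6 FPKM for the open ones, and those of CNPY4 at 15.7 to 19.2 FPKM against 405 to 433 FPKM.

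The 5 most abundant values that rose were all listed under genes with an opposite-strand partner. Such partners are common at high abundance: 77 of 92 annotated genes (83.7%) among the 100 highest in mean FPKM had one. The value listed under MFSD11 was 4100, 4698 and 3742 FPKM with 1 ribosome and 15436, 18185 and 12085 FPKM with 3 or more (difference 2.05 ± 0.17; limma adjusted p = 0.00332). Its partner is SRSF2, a splicing factor of the SR family, which was itself listed at 39.2 to 74.6 FPKM with 1 ribosome and 80.9 to 106 FPKM with 3 or more and did not pass (difference 0.92, limma adjusted p = 0.0825). ZNF593OS, opposite ZNF593, rose by 1.66, JMJD8, opposite the ubiquitin ligase gene STUB1, by 1.45, SHLD2, opposite the glutamate dehydrogenase gene GLUD1, by 2.65, and ADCY3, opposite the centromere gene CENPO, by 1.15. JMJD8 and STUB1 are each other's partner and went opposite ways: STUB1 was listed at 2265, 3514 and 2659 FPKM with 1 ribosome and 1022, 800 and 846 FPKM with 3 or more, a fall by 1.44 (limma adjusted p = 0.0109).

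The largest fall among genes above 0 in all 6 libraries was that of the value listed under CNPY4, a gene opposite TAF6. It was 405, 433 and 429 FPKM with 1 ribosome and 19.2, 15.7 and 16.6 FPKM with 3 or more (difference -4.35 ± 0.24; limma adjusted p = 0.00283). With 2 ribosomes it was 24.2, 76.5 and 60.5 FPKM, so the 1-ribosome libraries stood above all other fractions, the input included at 95.2 to 231 FPKM. ZBTB32, a zinc-finger repressor gene with no partner, fell from 440, 575 and 450 FPKM to 40.3, 56.2 and 46.3 FPKM (difference -3.13 ± 0.21; limma adjusted p = 0.00332). The pairs of ZBTB32 gave nearly the same value, -3.22, -3.08 and -3.10.

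Of the other named genes that fell most, TMEM134, INPP5K, REM2 and CCDC194 had no partner and MBLAC1 had one without a symbol. INPP5K, an inositol polyphosphate phosphatase, was listed at 179, 273 and 182 FPKM with 1 ribosome and 18.2, 30.9 and 7.49 FPKM with 3 or more. REM2, a small GTPase, was listed at 103, 76.3 and 86.4 FPKM with 1 ribosome and 11.1, 4.10 and 6.29 FPKM with 3 or more. TMEM134 fell by 3.43, CCDC194 by 3.71, INPP5K by 3.39, REM2 by 3.34 and MBLAC1 by 3.33, and no heavy value of any of the 5 reached a monosome value. Among the most abundant falls, MXD3 (opposite PRELID1) fell by 1.96, P2RX5-TAX1BP3 (opposite EMC6) by 2.63, DDTL (opposite DDT) by 1.10 and HGS, an endosomal sorting protein gene, by 0.82. Without the PRMT1 inhibitor pair, 8 of the 30 named genes kept their call, namely PFN1, SHLD2, CNPY4, MT-ND2, CCDC194, TMEM134, INPP5K and ZBTB32. Without the PRMT4 inhibitor pair 21 did, and ARF3, CDHR5, MAP7D1, HMX1, ADCY3, MT-ND2, MBLAC1, HGS and DDTL did not.

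The mRNAs of the translation apparatus lay on both sides of the median. The counts of called list members below are to be read against 8.11% of all tested genes called higher and 9.42% called lower. Of 46 tested genes of the large cytosolic ribosomal subunit, 0 were called higher and 3 lower (6.52%, under the share of all genes), with a median difference of -0.40 against -0.02 for all tested genes. Of 32 of the small subunit, 1 was called higher and 5 lower (15.6%), with a median of -0.44. Of 21 other TOP mRNAs, 1 was called higher and 5 lower (23.8%), with a median of -0.92. That list is mixed: it holds elongation factors, initiation factors such as EIF4B, and other genes such as TPT1, NPM1, COX4I1 and VIM. The shares lower in all 3 treatments were 15 of 46, 14 of 32 and 10 of 21, beside 28.4% of all tested genes. Relative to monosomes, large-subunit input medians were -0.87, -0.90 and -1.10 (DMSO, PRMT1 inhibitor, PRMT4 inhibitor). With 3 or more ribosomes they were -0.57, -0.31 and -0.29. Small-subunit medians were -1.37, -1.01 and -1.30 in the input and -0.43, -0.46 and -0.17 in heavy polysomes. In both lists the input lay below heavy polysomes in each treatment. The other TOP mRNAs had -0.90, -0.75 and -0.71 in the input and -0.79, -1.15 and -0.71 in heavy polysomes. Without the PRMT1 inhibitor pair 1 gene of the large subunit was called lower and 0 of the other 2 lists, with medians of -0.44, -0.30 and -0.73. Without the PRMT4 inhibitor pair 6 large-subunit and 3 small-subunit genes were called lower.

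RPL41, which encodes the smallest ribosomal protein, was listed at 425, 812 and 719 FPKM with 1 ribosome and 42.0, 85.5 and 99.9 FPKM with 3 or more, without overlap. It fell by 2.93 ± 0.21 (limma adjusted p = 0.00332), and values with 2 ribosomes, 257, 124 and 241 FPKM, lay between. RPL30, opposite RPL30-AS1, fell by 1.68, from 167, 302 and 213 FPKM to 51.5, 83.3 and 48.1 FPKM, and RPL23 by 1.81. RPL10, lower in all 3 treatments and opposite DNASE1L1, did not pass, with a difference of -0.46. RPL8 and RPLP2 lay above the median in all 3 and did not pass, at 0.48 and 0.58.

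In the small subunit RPS2, RPS12, RPS18, RPS24 and RPS27 fell. The size of 2 of these falls rests on values of 0 and the added 1 FPKM. With 3 or more ribosomes RPS27 was listed at 0, 5.98 and 0 FPKM, and RPS24 at 0 in the PRMT4 inhibitor. RPS2 was listed at 149, 229 and 916 FPKM with 1 ribosome and 42.4, 67.8 and 52.7 FPKM with 3 or more, and its difference of -2.34 ± 0.49 (limma adjusted p = 0.0244) was largest in the PRMT4 inhibitor pair, where the monosome value was highest. FAU, which encodes a ubiquitin-like protein fused to a ribosomal protein of the small subunit and lies opposite MRPL49, rose by 2.15 (limma adjusted p = 0.0217), from 17.3, 27.2 and 6.95 FPKM to 49.9, 68.3 and 66.0 FPKM. RPS15, RPS13 and RPS4X, each lower in all 3, did not pass, at -0.26, -0.44 and -0.36.

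Among the other TOP mRNAs RACK1, a scaffold protein of the small ribosomal subunit, was listed at 921, 1012 and 784 FPKM with 1 ribosome, 761, 873 and 876 FPKM with 2, and 326, 315 and 382 FPKM with 3 or more. It fell by 1.20 ± 0.19 (limma adjusted p = 0.0128), and the groups did not overlap; its partner has only a clone name. EEF1A1, which delivers aminoacyl-tRNA to the ribosome, fell by 1.48, EEF1G by 1.68, TPT1 by 1.42 and HNRNPA1 by 1.17. EEF1D, the exchange factor subunit of the same elongation complex as EEF1G, rose by 1.27 ± 0.18 (limma adjusted p = 0.00971), from 306, 402 and 233 FPKM to 605, 775 and 568 FPKM. Its partner is a gene without a symbol.

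The start sequences were set beside these values. A C at the start followed by C or T for a run of at least 5 bases in all was found in 3.98% of 22114 genes with 1 RefSeq start and in 8.09% of the 2162 tested ones. It was found in 24 of 30 large-subunit, 17 of 23 small-subunit and 10 of 12 other TOP genes with 1 start. Within these lists the run was found in 22 of 26 genes that were lower in all 3 treatments, in 25 of 32 of mixed direction and in 4 of 7 that were higher in all 3. Among all called genes it was found in 21 of 213 that fell (9.86%) and 3 of 178 that rose (1.69%). Among those without an opposite-strand exon it was found in 10 of 103 that fell (9.71%) and 0 of 53 that rose. All tested genes without an opposite-strand exon had it in 76 of 852 (8.92%), so the share among falls was near that of all such genes. EEF1G fell without such a run, and FAU rose with one. A match is only a description of the annotated start, read on the strand of the gene.

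**Figure D3:**
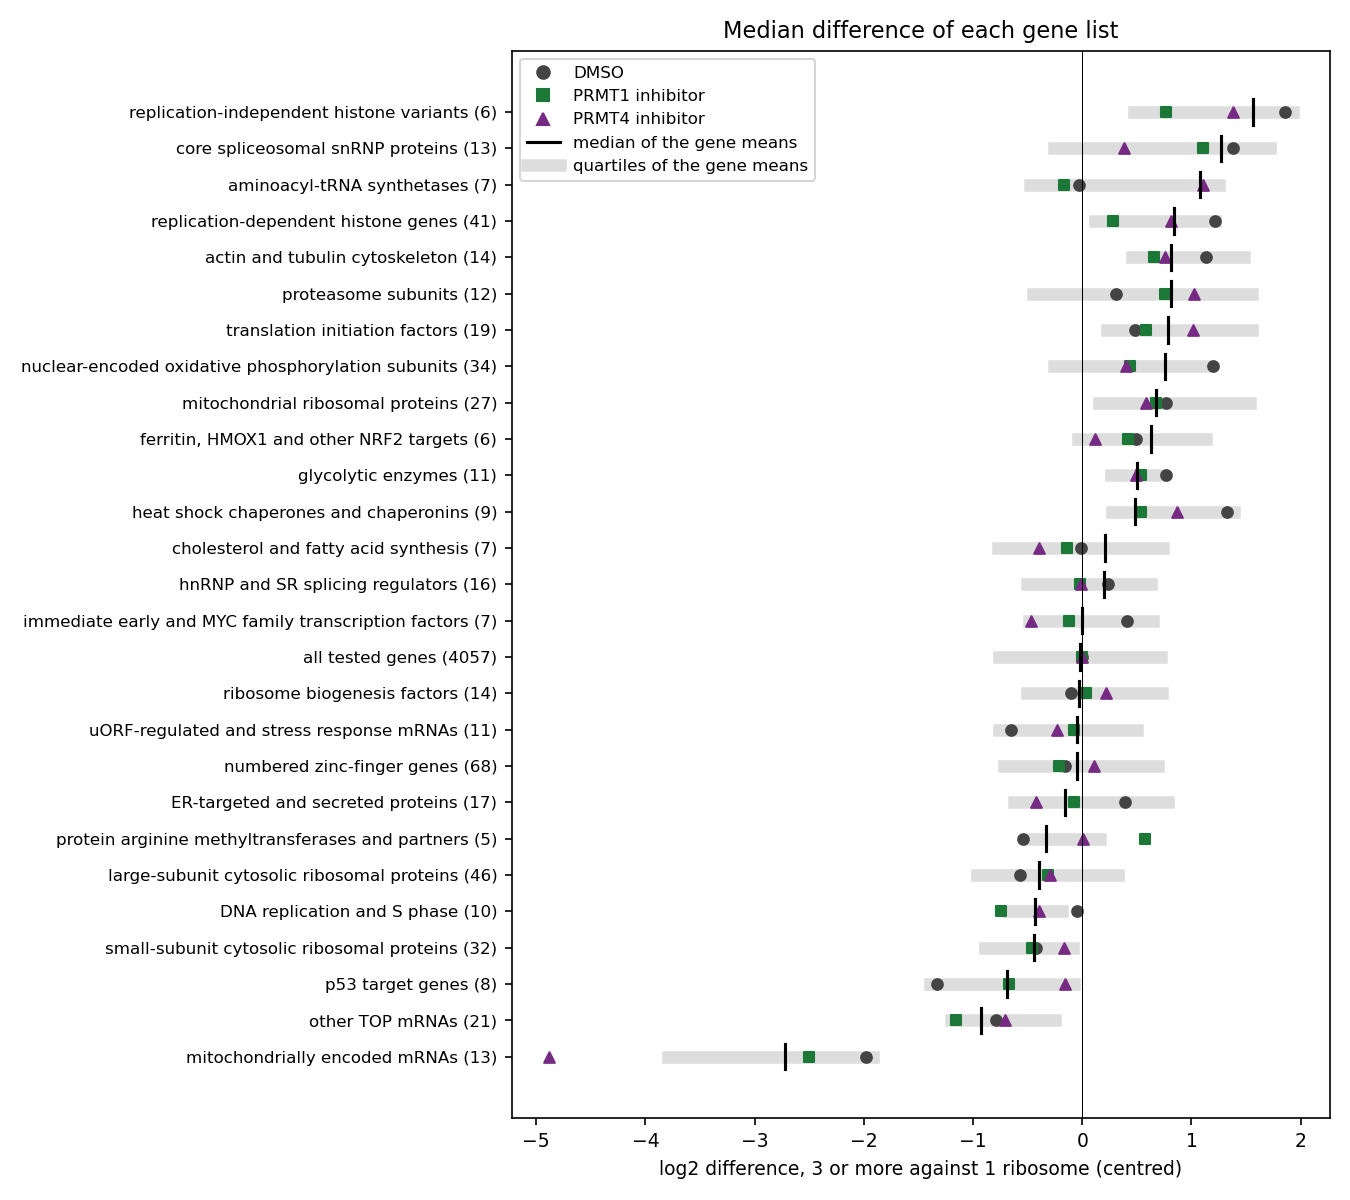
Median centred log2 difference of each gene list in DMSO (circles), PRMT1 inhibitor (squares) and PRMT4 inhibitor (triangles), with the median (black tick) and quartiles (grey bar) of the gene means and the number of tested members in parentheses. Mitochondrially encoded mRNAs lie lowest, at -2.72, and replication-independent histone variants highest, at 1.56, with all tested genes at -0.02.

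Of 19 tested genes listed as initiation factors, 2 were called higher (10.5%, near the 8.11% of all tested genes) and 0 lower. In all 3 treatments 9 were higher and 1 lower, and the median was 0.79. The 2 called were EIF5A and EIF4A3. EIF4B and EIF3F, counted with the other TOP mRNAs instead, were lower in all 3 treatments and did not pass. Leaving out either inhibitor pair left 1 called. EIF5A, which helps the ribosome through difficult peptide bonds, was listed at 32.9, 65.4 and 14.97 FPKM with 1 ribosome and 265, 277 and 129 FPKM with 3 or more, a rise by 2.89 ± 0.28 (limma adjusted p = 0.00459). Its partner is GPS2. EIF4A3, an RNA helicase of the exon junction complex, rose by 1.81 (limma adjusted p = 0.0279), while EIF4A1, EIF3B and EIF2A did not pass, at 1.65, 1.92 and -1.77. Of 14 ribosome biogenesis factors, NOC2L rose and NOP16, opposite ARL10, fell by 0.91, with a median of -0.03. Of 7 aminoacyl-tRNA synthetases and partners, HARS1 rose by 1.38 and QARS1 fell by 3.06. In this list 2 members, QARS1 among them, were listed at 0 in at least 1 of the 6 libraries. The size of the QARS1 fall thus rests in part on the added 1 FPKM.

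Nuclear genes for mitochondrial proteins lay above the median. Of 27 tested mitochondrial ribosomal protein genes, 5 were called higher (18.5%) and 1 lower, 15 were higher in all 3 treatments (28.4% of all genes were) and the median was 0.67. MRPL51, opposite NCAPD2, was listed at 179, 323 and 169 FPKM with 1 ribosome and 734, 712 and 533 FPKM with 3 or more, a rise by 1.80 ± 0.22 (limma adjusted p = 0.00642). MRPS34, with no partner, rose by 1.88 from 21.7, 36.7 and 53.8 FPKM to 115, 120 and 108 FPKM. MRPL20 fell by 1.06.

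Of 34 nuclear-encoded subunits of oxidative phosphorylation, 6 were called higher (17.6%) and 1 lower, with a median of 0.76. ATP5MF, a subunit of ATP synthase, rose by 1.03, NDUFA2 of complex I by 1.21, CYC1 of complex III by 1.43 and ATP5F1D of ATP synthase by 1.40. CYC1 was listed at 48.8, 30.6 and 41.1 FPKM with 1 ribosome and 128, 95.4 and 68.3 FPKM with 3 or more, without overlap. COX5B and COX8A of complex IV also rose, by 2.40 and 2.93, and NDUFA6 of complex I fell by 1.60. The 20 members with no exon opposite had a median of 0.94 in the same fit, and in the refit recentred on genes without an opposite-strand exon 6 were called higher and 0 lower. Without the PRMT1 inhibitor pair 0 genes of either nuclear list were called, with medians of 0.62 and 0.70, and without the PRMT4 inhibitor pair 3 mitochondrial ribosomal protein genes and 2 subunits were called higher.

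The 13 mRNAs of the mitochondrial genome were the list farthest from the median, with 0 called higher and 7 lower, and a median of -2.72. MT-CYB, cytochrome b of complex III, was listed at 267, 325 and 3703 FPKM with 1 ribosome and 86.7, 38.4 and 61.8 FPKM with 3 or more (difference -3.32 ± 0.73; limma adjusted p = 0.0277). MT-ND5 of complex I was listed at 282, 253 and 2110 FPKM with 1 ribosome and 50.6, 49.2 and 63.7 FPKM with 3 or more. MT-CO1 of complex IV was listed at 203, 140 and 518 FPKM with 1 ribosome and 37.6, 53.3 and 85.4 FPKM with 3 or more. MT-ND2, MT-ND3, MT-ND6 and MT-CO3 also fell, MT-ND4 did not pass at -1.64, and no heavy value of MT-CYB, MT-ND5 or MT-CO1 reached a monosome value. Of the 13, 6 were listed at 0 in at least 1 of the 6 libraries. The size of their differences rests in part on the added 1 FPKM.

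One library stood apart for these genes. The 13 mRNAs together took 4.79% of summed FPKM in the monosome library of the PRMT4 inhibitor, against 0.259% in each of the other 2 monosome libraries and 0.0690 to 0.0964% in the 3 heavy libraries. In the inputs they took 3.80% in DMSO, 0.0969% in the PRMT1 inhibitor and 1.28% in the PRMT4 inhibitor. The list medians by treatment were -1.98, -2.50 and -4.88. Without the PRMT4 inhibitor pair the median was -1.86, with 2 of 13 called lower, without the PRMT1 inhibitor pair it was -3.51 with 1 called, and without the DMSO pair it was -3.68 with 11 called. The list median was below 0 in each of the 3 pairs.

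Replication-dependent histone genes, whose mRNAs end in a stem-loop in place of a poly(A) tail, lay above the median. Of 41 tested, 10 were called higher (24.4%) and 1 lower, 17 were higher in all 3 treatments and 1 lower, and the median was 0.84. H2AC20 was listed at 157, 208 and 108 FPKM with 1 ribosome, 482, 670 and 289 FPKM with 2 and 876, 852 and 385 FPKM with 3 or more, and rose by 2.31 ± 0.21 (limma adjusted p = 0.00417). H1-2, a linker histone, rose by 1.59 from 46.1, 97.6 and 30.8 FPKM to 159, 166 and 98.0 FPKM. The most abundant, H2BC15 and H2BC12, were higher in all 3 treatments and did not pass, at 0.85 and 1.13.

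H3C14 and H3C15 had the same values in all 12 libraries, as near-identical copies whose reads cannot be told apart, and count as 1 profile of the 40 distinct ones in the list. They rose by 1.22. H2AC14 was the exception: it was listed at 103, 32.6 and 26.8 FPKM with 1 ribosome and at 0 in all 3 heavy libraries. Histone gene copies are alike in sequence, so single members are uncertain. By pair, the list median was 1.22 in DMSO, 0.28 in the PRMT1 inhibitor and 0.81 in the PRMT4 inhibitor. Without the PRMT4 inhibitor pair 3 were called higher, without the DMSO pair 6, and without the PRMT1 inhibitor pair 0. Of 6 replication-independent histone variant genes, MACROH2A1, H1-10 and H2AX rose by 1.84, 2.13 and 1.95, and H3-3B did not pass at -0.37.

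**Figure D4:**
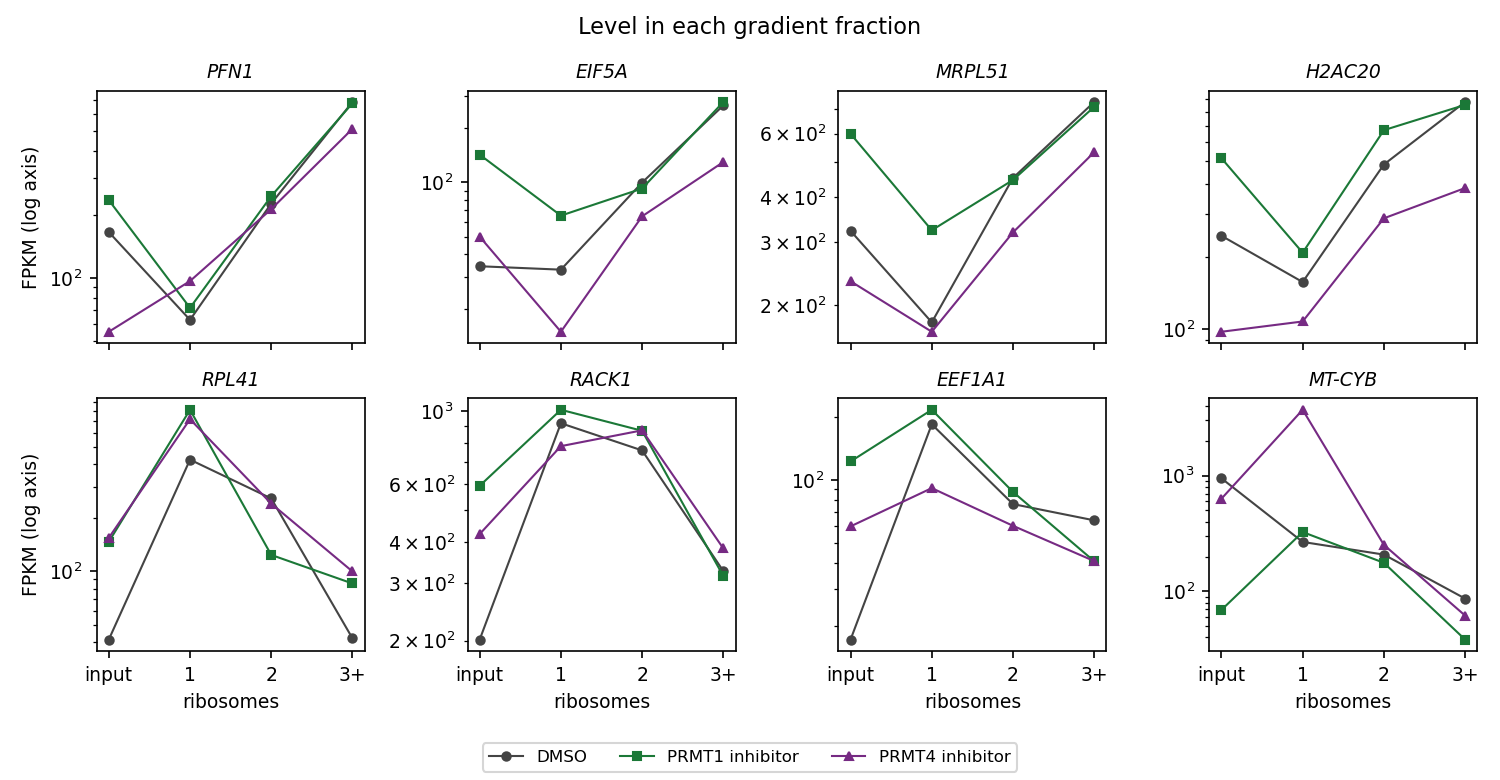
FPKM on a log axis in the input and with 1, 2 and 3 or more ribosomes for 8 genes, with 1 line per treatment and 1 library per point. PFN1, EIF5A, MRPL51 and H2AC20 are highest with 3 or more ribosomes in each treatment, and RPL41, RACK1, EEF1A1 and MT-CYB are lower there than with 1 ribosome.

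Other lists had medians above that of all tested genes. Of 14 tested genes of the actin and tubulin cytoskeleton, 4 were called higher and 0 lower, with a median of 0.81: PFN1, CFL1, TPM3 and ACTB. CFL1, cofilin, which severs actin filaments and lies opposite MUS81, rose by 2.45 from 23.4, 22.02 and 37.7 FPKM to 164, 136 and 103 FPKM (limma adjusted p = 0.00971). Of 13 core spliceosomal proteins, LSM4 and SNRPB rose by 2.01 and 2.87, with a median of 1.27, while of 16 hnRNP and SR proteins SRSF1 fell by 1.13 and none of the others passed. Of 12 proteasome subunits, PSMD7, PSMD4 and PSMB1 rose and PSMA3 fell, with a median of 0.81. Of 9 heat shock chaperones, TRAP1, HSPE1 and HSPA1B rose, by 1.39, 1.64 and 3.15, and HSPA1B was the 1 member listed at 0 in any of the 6 libraries. Of 11 glycolytic enzymes 1 was called higher (HK2, by 1.52; 9.09%, near the 8.11% of all tested genes) and 0 lower, and GAPDH did not pass at 1.05. Without the PRMT1 inhibitor pair 1 cytoskeletal gene was called and 0 of the spliceosomal, proteasome, chaperone and glycolytic lists.

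Several lists were near the median or split. Of 11 mRNAs with regulatory upstream reading frames, 0 were called in either direction, and ATF4, the transcription factor of the integrated stress response, was listed at 27.6, 26.04 and 14.6 FPKM with 1 ribosome and 11.04, 5.40 and 4.39 FPKM with 3 or more (difference -1.42, limma adjusted p = 0.0926). Of 17 ER-targeted and secreted protein genes 0 were called higher and 1 lower (OST4), of 10 DNA replication genes 0 in either direction, and of 6 NRF2 targets 0 in either direction. Of 7 cholesterol and fatty acid genes, SREBF1, the transcription factor that drives lipid synthesis, rose by 2.09 (limma adjusted p = 0.0115); it lies opposite RAI1. The median of that list was 0.21 over the gene means but -0.01, -0.14 and -0.40 within the treatments. Of 8 p53 targets PHLDA3 rose by 2.16 and TP53I3 fell by 2.85, and of 7 immediate early and MYC family genes FOSL1 fell by 1.58. Of 68 numbered zinc-finger genes 4 were called higher (5.88%) and 6 lower (8.82%), both under the shares of all tested genes, among them ZNF276 (1.80, opposite FANCA) and ZNF771 (-1.55, opposite DCTPP1). Of 5 tested arginine methyltransferase genes and partners 0 were called, with PRMT1 at 0.63 and PRMT6 at -0.56.

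Reading frame length, which the choice of genes did not use, was set beside the differences. Over the 1526 genes with a coding length and no opposite-strand exon, the median difference was -0.09 under 400 coding bases, 0.07 from 400 to below 800, -0.17 from there to below 1600, -0.40 from there to below 3200 and -0.28 at 3200 or more. The share called higher was 8.27, 8.24, 3.76, 4.38 and 4.71% in that order. Called genes without an opposite-strand exon had a median coding length of 777 bases when higher and 1159 bases when lower, and 3′ untranslated regions of 334 and 560 bases. The Spearman correlation of the difference with coding length was weak, -0.11 over these 1526 genes and -0.05 over 3968 genes. FPKM divides by transcript length, and whether the length used was the same in both libraries of a pair is not given in the sources used here.

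**Figure D5:**
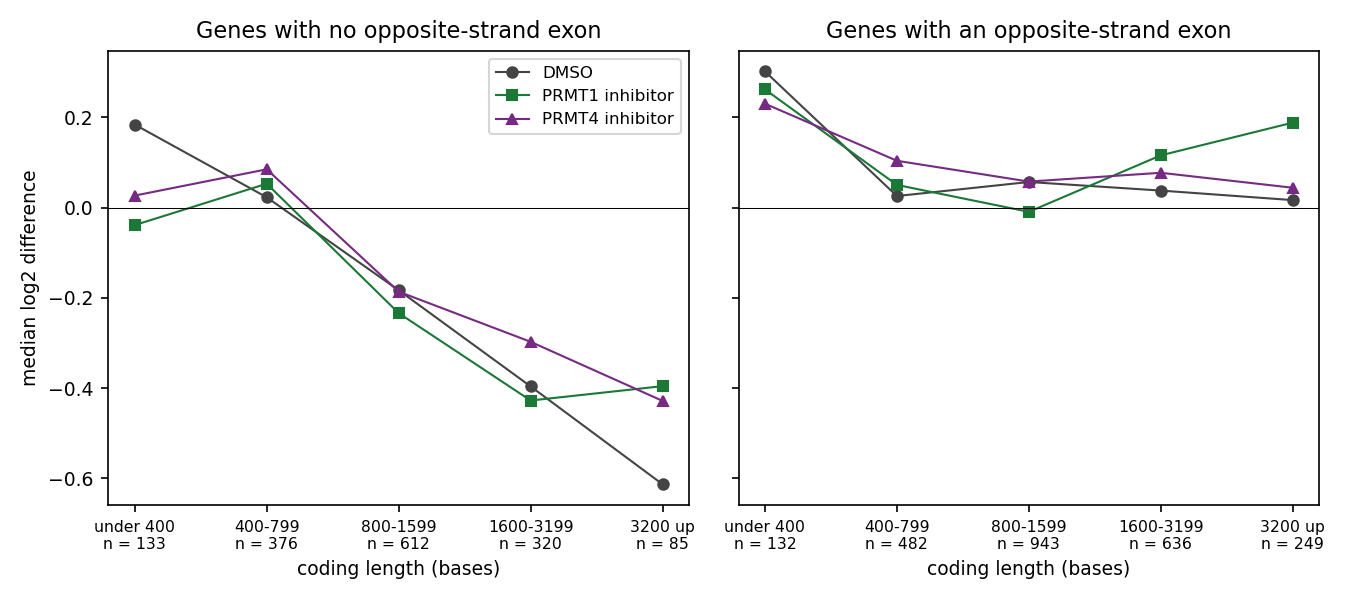
Median centred log2 difference by class of coding length in each treatment, for genes without (left) and with (right) an opposite-strand exon, with the number of genes under each class. On the left the 3 treatments lie at -0.43 to -0.30 from 1600 to below 3200 bases, and on the right all lie above 0 there.

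The libraries outside the comparison were read for the same genes. Relative to monosomes, genes called higher had medians of 0.83, 0.77 and 0.85 with 2 ribosomes and 1.60, 1.59 and 1.57 with 3 or more, in the order DMSO, PRMT1 inhibitor and PRMT4 inhibitor. Genes called lower had -0.84, -0.81 and -0.88 with 2 ribosomes and -1.79, -1.86 and -1.75 with 3 or more. Input medians, also relative to monosomes, were 0.95, 1.04 and 1.08 for genes called higher. For genes called lower they were -0.62, -0.66 and -0.92. The input thus lay on the same side of monosomes as the other fractions. These values share the monosome libraries that chose the genes and are given side by side only. The log2 ratio of 2 ribosomes to input, which uses none of the 6 libraries, had a median of -0.19 for genes called higher, -0.06 for genes called lower and 0.05 for all tested genes. By treatment, the median was -0.16, -0.29 and -0.24 for genes called higher and -0.26, -0.14 and 0.09 for genes called lower, beside 0 for all tested genes, so in the PRMT4 inhibitor the genes called lower lay on the other side.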

How the data were processed

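The authors deposited FPKM per Ensembl gene, rounded to 2 decimals, for 12 libraries, 1 for each of 3 treatments and 4 gradient fractions. Per the submitters' processing notes, reads were handled with cutadapt 1.18, STAR 2.5.3a and RSEM on GRCh37. The values are FPKM, so no count model was run. Libraries were made with a directional kit, per the labels' protocols. 0 columns belonged to other samples, and 15345 of 15534 IDs were matched to a symbol.

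Genes whose FPKM averaged 10 or more across all 12 libraries were tested as paired, median-centred differences of log2(FPKM + 1), which understates the change of low genes, with limma 3.58.1 (R 4.3.3; eBayes with an abundance trend) and Benjamini-Hochberg adjustment over all of them. Treatment is the pair, since both libraries of a pair come from one treatment. The script was tested on simulated data. Tables and figures were made with python 3.11.15, pandas 2.3.3, numpy 2.4.6 and matplotlib 3.10.9.

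The members and gene lists were chosen with earlier results of these data known. Named genes were the 10 highest and 10 lowest called genes above 0 in all 6 libraries, the 5 most abundant called in each direction, and in each list up to 4 abundant members that kept the direction of its median in all 3 treatments and up to 2 of the other direction. A gene that met this rule is not reported here. Other called list members, and the genes in the plot of levels by fraction, were chosen after their values were seen. GENCODE release 29 (GRCh38) gave names, coding lengths and opposite-strand exons only. The lists of named lncRNAs and of structural noncoding RNAs had 0 tested members and were not analysed here. Alternatives covered the pseudocount, the abundance minimum, scaling, pairing, the variance model, gene subsets and leaving out each pair.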

Additional observations from a re-analysis of the deposited data

Results flagged for a closer look

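The medians of 7 gene lists had one sign in 1 treatment and the other sign in the other 2; these differences between treatments were not tested. Ribosome biogenesis factors had a median of -0.10 in DMSO, hnRNP and SR splicing regulators 0.24, immediate early and MYC family genes 0.41, ER-targeted and secreted protein genes 0.39 and arginine methyltransferases with their partners -0.55, each in DMSO and each of the other sign from both inhibitors. Aminoacyl-tRNA synthetases had a median of 1.10 and numbered zinc-finger genes 0.10 in the PRMT4 inhibitor, of the other sign from DMSO and the PRMT1 inhibitor. With 3 libraries a group, single libraries were not screened for outliers.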

How the results depend on the processing

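Counts of called genes were within 1.5 times of those reported under another pseudocount (0.5 or 5), a minimum set over the 6 libraries, no centring, upper-quartile scaling, robust eBayes, protein-coding genes only and genes above 0 in all 6 libraries (an alternative chosen after seeing the data). Without the replicate block, that is with no pairing by treatment, 359 were called higher and 398 lower, and 657 calls were shared with the paired fit. Lower abundance minimums changed the number of genes tested. At a minimum of 1 FPKM (10965 genes) 82 were called higher and 173 lower, 2318 and 2439 had the same direction and 428 and 685 were at least 2-fold in all 3 treatments. With no minimum (15534 genes) limma called 0 higher and 0 lower (2103 at an unadjusted p under 0.05), with 1851 and 2749 of the same direction and 419 and 733 at least 2-fold. At 50 FPKM (1241 genes) 244 were called higher and 253 lower, with 414 and 414 of the same direction and 100 and 129 at least 2-fold. Without a variance trend limma called 0 higher and 0 lower (1340 at an unadjusted p under 0.05), and the cause was not tested. The fit on 9 ribosome-fraction libraries called 553 higher and 581 lower, and that on the 1527 genes without an opposite-strand exon 97 and 119, with 429 and 438 of the same direction and 107 and 143 at least 2-fold. Leaving out each pair gave 8 to 281 called higher, 14 to 313 lower, 1431 to 1456 higher and 1432 to 1456 lower in the remaining pairs, and 411 to 439 higher and 462 to 498 lower by at least 2-fold. Medians of 8 lists crossed 0. Those with 1 sign in all 3 treatments were upstream reading frame mRNAs (0.46 at 50 FPKM, 0.044 with upper-quartile scaling, 0.29 without opposite-strand genes and -0.076 to 0.013 when each pair was left out), heat shock chaperones (-0.39 at 50 FPKM) and cholesterol genes (-0.81 at 50 FPKM, -0.36 to 0.39 when each pair was left out). The other 5, of mixed sign between treatments, were ribosome biogenesis (up to 0.72), immediate early (up to 0.67), hnRNP and SR (down to -0.31), ER-targeted (up to 0.074) and zinc-finger genes (up to 0.076), and the cause was not tested. At about 20.6 to 23.3 fragments for the median gene, counting error limits the differences of less abundant genes.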
